A study of Homo sapiens with 8 samples.

Results

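The genes described here are those of the desmosome and of epithelial adhesion: the desmosomal cadherins DSG2 and DSC2, the plaque proteins DSP, PKP1, PKP2 and JUP, the keratins KRT8 and KRT18, and the adhesion molecules CEACAM5 and CDH1. Their transcripts were measured with microarrays in A673 and SK-ES1, a pair of human Ewing sarcoma lines. The list names 10 genes, and 9 of them had a named probe set among the 14884 genes measured. CDH1 was not analysed here. For each gene the probe set with the highest mean log2 value over the 8 arrays was used. The probe sets were thus chosen by their mean level, and the genes were selected on earlier results. The list was drawn up with earlier results of these arrays known, among them the changes of DSG2 and KRT18 in A673 and of CEACAM5 in SK-ES1, so the values of those 3 are a description and support nothing further.

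Ewing sarcoma arises in bone or soft tissue and carries a fusion gene, usually EWSR1-FLI1, whose product binds DNA through the ETS domain of FLI1. RING1B is a ubiquitin ligase of Polycomb repressive complex 1, best known for keeping developmental genes silent. Cells of the established lines A673 and SK-ES1 carried either shRING1B, a short hairpin RNA against RING1B, or shGFP, a hairpin against GFP that served as control. There were 2 arrays in each of the 4 groups, every array held total RNA of cells with a hairpin, and each comparison of hairpins rests on 1 line and 1 hairpin against RING1B. The transcript of the targeted gene was not analysed here. The labels do not say whether the 2 arrays of a group are separate cultures, and p-values here reflect the spread between arrays alone, which may be technical. Array medians lay between 4.01 and 4.1 on the log2 scale. Of 9 genes listed as marking Ewing sarcoma cells 6 were measured, and each lay above the median of all probe sets (4.07) in all 4 groups. CD99, a surface protein used to diagnose the tumour, stood at 12.16 ± 0.0703 (SD, n = 2) in A673 shGFP and 11.36 ± 0.155 in SK-ES1 shGFP.

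Desmosomes are junctions that tie the intermediate filaments of neighbouring cells together. Desmogleins and desmocollins, which are cadherins, bind across the gap between cells, plakophilins and plakoglobin (JUP) bind their tails inside the cell, and desmoplakin (DSP) links this plaque to keratin filaments. Desmosomes are typical of epithelia and heart muscle, and Ewing sarcoma, though not an epithelial tumour, is known to contain some epithelial junction proteins.

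In A673, DSG2 fell by nearly 4-fold under the RING1B hairpin, while PKP1 and KRT18 rose by about 1.5-fold. In SK-ES1, CEACAM5 fell by nearly 4-fold. No other member was called under the hairpin in either line. Of the 9 members limma called 3 in A673, where 3.74% of all genes were called. Of these 2 were higher, as were 0.705% of all genes, and 1 was lower, as were 3.04%. In SK-ES1 it called 1 member, which was lower, where 0.0672% of all genes were called, each of them lower and 0% higher. The difference between the lines in this response was called for 2 members, where 0.786% of all genes were called: 1 in the direction of 0.625% of genes, with the change higher in SK-ES1, and 1 in that of 0.161%. A gene is called when its p-value from limma, adjusted by the Benjamini-Hochberg method over all 14884 genes, is under 0.05. The members were listed with earlier results known, so a share of members above that of all genes is a description and supports nothing further. The median log2 change of the 9 members was 0.08 in A673 and -0.0085 in SK-ES1, against 0.01 and -0.0039 over all genes, and 6 of 9 members lay above 0 in A673 and 4 of 9 in SK-ES1. Under shGFP the lines themselves differed more. SK-ES1 and A673 differed in 6 of 9 members, 3 higher and 3 lower in SK-ES1, where 30.7% of all genes were called, 13.7% higher and 17% lower.

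**Figure D1:**
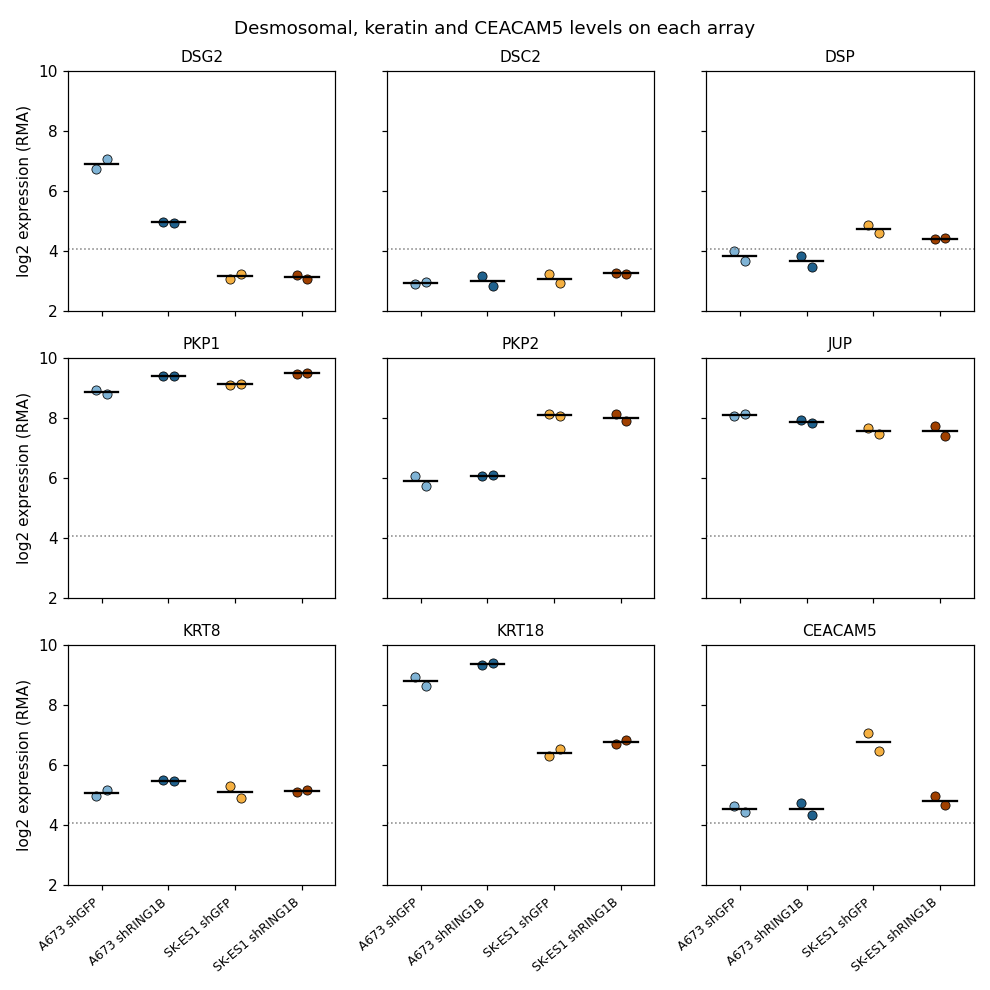
Log2 expression of the 9 measured members on each of the 8 arrays, with points for arrays, black bars for group means and a dotted line at the median of all probe sets (4.07). DSG2 in A673 drops from 6.73 and 7.07 to 4.96 and 4.93, and CEACAM5 in SK-ES1 from 7.07 and 6.49 to 4.97 and 4.67. Levels of different genes are not comparable, since each probe set has its own brightness.

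DSG2 is the desmoglein found in simple epithelia and heart muscle as well as in stratified epithelia. Its promoter window of 250 bases before and 50 after the start, from RefSeq on GRCh38.p14, lies on the plus strand at chr18:31497927-31498226. It is shown, with that of CEACAM5, because these members had the largest changes under the RING1B hairpin. Capitals mark GGAA or, on the other strand, TTCC, the core that ETS factors such as FLI1 recognise.

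DSG2: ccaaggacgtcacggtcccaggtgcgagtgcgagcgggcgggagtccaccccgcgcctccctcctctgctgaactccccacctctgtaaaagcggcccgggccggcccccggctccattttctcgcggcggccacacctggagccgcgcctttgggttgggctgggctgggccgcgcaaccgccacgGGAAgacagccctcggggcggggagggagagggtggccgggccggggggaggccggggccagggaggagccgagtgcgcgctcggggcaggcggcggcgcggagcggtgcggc
CEACAM5: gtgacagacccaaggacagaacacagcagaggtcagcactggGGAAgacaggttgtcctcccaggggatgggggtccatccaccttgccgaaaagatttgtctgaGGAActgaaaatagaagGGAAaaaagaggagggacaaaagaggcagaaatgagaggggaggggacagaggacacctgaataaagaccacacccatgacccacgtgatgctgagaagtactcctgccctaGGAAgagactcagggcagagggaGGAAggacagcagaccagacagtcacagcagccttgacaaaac

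The CEACAM5 window lies on the plus strand at chr19:41708376-41708675. The windows differed in makeup. DSG2's holds 36 CG pairs and 1 GGAA, and 87.3% of all 35116 promoter windows of 300 bases in the table hold fewer CG pairs. CEACAM5's holds 2 CG pairs and 5 GGAA, and 11% of windows hold fewer CG pairs. The median window holds 14 CG pairs and 3 GGAA, and 95.5% hold at least 1 GGAA on either strand. GGAAGGAA, the tandem form, occurred on either strand in 3.67% of windows and in neither of these. A match of letters is a description, not a binding site, and no binding was measured here. Promoter windows were found for 7 of the 10 listed genes.

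In A673 shGFP the DSG2 log2 level was 6.73 on one array and 7.07 on the other. Under shRING1B it was 4.96 and 4.93. Both knockdown arrays lay below both controls, and they differed from each other by far less than the controls did. The log2 change was -1.95 with a standard error of 0.136 (95% interval -2.25 to -1.65, limma adjusted p = 0.000295), a 3.87-fold lower level. The call held under all 17 alternative settings, with a change between -2.12 and -1.78.

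In SK-ES1 the DSG2 log2 level was 3.08 and 3.22 with shGFP and 3.18 and 3.07 with shRING1B. These 4 arrays overlapped and all lay under the median of all probe sets. The log2 change was -0.0219 (95% interval -0.32 to 0.28, adjusted p = 0.99). Whether DSG2 stood above background in SK-ES1 was not measured. Under shGFP, DSG2 was lower in SK-ES1 than in A673 by a measured 3.75 on the log2 scale (standard error 0.136, limma adjusted p = 3.86e-08), and no fold is given against a level that may lie at background. After the fall, A673 still lay above SK-ES1, at 4.95 ± 0.0196 against 3.13 ± 0.0798 (SD, n = 2) under shRING1B. The order of DSG2 levels was therefore A673 shGFP, A673 shRING1B and then both SK-ES1 groups, whose arrays overlapped. The 2 responses were compared directly: the change was 1.93 higher in SK-ES1 than in A673 (standard error 0.192, limma adjusted p = 0.00562). That call was lost without SK-ES1 shRING1B replicate 1 (adjusted p = 0.0535) or replicate 2 (adjusted p = 0.0522). If DSG2 in SK-ES1 lies at background, a fall there could not have been seen, and a smaller response then cannot be told apart from a low starting level.

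DSG2 lies at one end of a cluster of 7 desmosomal cadherin genes on chromosome 18, all of them measured. None of its 9 measured neighbours was called in either line, where 3.74% of all genes were called in A673 and 0.0672% in SK-ES1. These are the 6 cadherin genes DSC3, DSC2, DSC1, DSG1, DSG4 and DSG3 on one side and DSG2-AS1, TTR and TRAPPC8 on the other. Their log2 changes lay between -0.21 and 0.08 in A673 (smallest limma adjusted p = 0.472) and between -0.23 and 0.20 in SK-ES1 (smallest adjusted p = 0.755). The cadherin neighbours and DSG2-AS1 lay under the median of all probe sets in every group, so a fall in them might not have shown. DSC2, the desmocollin most widely present beside DSG2, stood at 2.89 and 2.96 in A673 shGFP and at 3.16 and 2.84 in A673 shRING1B. In SK-ES1 it stood at 3.22 and 2.93 under shGFP and at 3.27 and 3.23 under shRING1B. All 8 arrays lay under the median of all probe sets, and in A673 the hairpin groups overlapped. Its log2 change was 0.08 (95% interval -0.24 to 0.40) in A673 and 0.18 (95% interval -0.14 to 0.50) in SK-ES1.

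**Figure D2:**
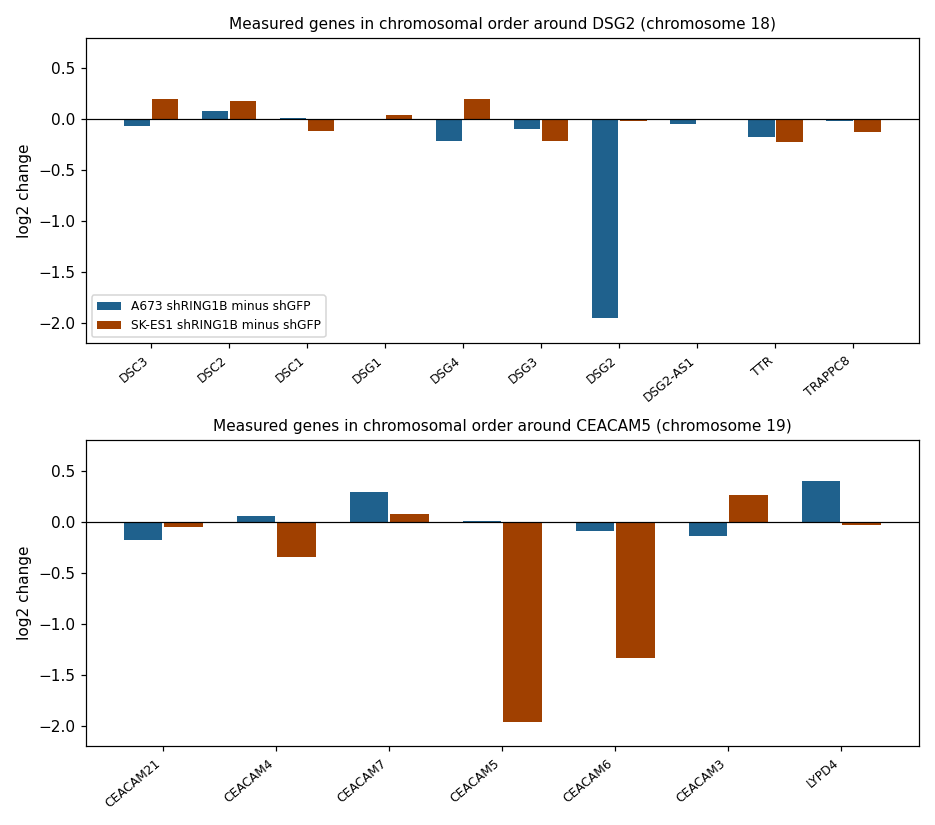
Log2 change under the RING1B hairpin in A673 (blue) and SK-ES1 (brown) for measured genes in chromosomal order around DSG2 (above) and CEACAM5 (below). DSG2 stands at -1.95 in A673 while its 9 neighbours stay between -0.21 and 0.08, and CEACAM6, next to CEACAM5, stands at -1.34 in SK-ES1. The cadherin neighbours of DSG2 and DSG2-AS1 lay under the median of all probe sets in every group.

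Among the plaque proteins, PKP1 (plakophilin 1), best known from stratified epithelia, was higher under the RING1B hairpin on every array of its line. In A673 its log2 level was 8.92 and 8.79 with shGFP and 9.39 and 9.40 with shRING1B. The change of 0.54 (standard error 0.11) passed the test (limma adjusted p = 0.0285). In SK-ES1 the control arrays read 9.11 and 9.15 and the shRING1B arrays 9.47 and 9.50. These groups did not overlap either, but the change of 0.36 (95% interval 0.11 to 0.60) did not pass over all genes (limma adjusted p = 0.521). Groups of 2 arrays can stand apart at small changes too, as those of DSC3 did in A673 (-0.07, limma adjusted p = 0.795). How many of all genes stand apart was not counted, so a lack of overlap is only a description, here and elsewhere. The difference between the lines was -0.19 (95% interval -0.53 to 0.16, adjusted p = 0.656), so the data show no difference in the PKP1 response and do not show that the responses were alike. The A673 call was lost when 1 array was left out: replicate 1 (adjusted p = 0.0671) or 2 (0.235) of A673 shGFP, or replicate 1 (0.0906) or 2 (0.0938) of A673 shRING1B. It was also lost with all probe sets tested (0.0732) and when A673 was fitted alone (0.0814).

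PKP2 (plakophilin 2), the plakophilin of heart muscle and simple epithelia, differed between the lines and not detectably between hairpins. Its log2 level in A673 was 6.07 and 5.74 with shGFP and 6.05 and 6.09 with shRING1B. In SK-ES1 the control arrays read 8.12 and 8.05 and the shRING1B arrays 8.13 and 7.89. The hairpin groups overlapped in both lines, and every SK-ES1 array lay above every A673 array. Under shGFP PKP2 was 2.18 higher in SK-ES1 on the log2 scale, or 4.54-fold (standard error 0.14, limma adjusted p = 1.53e-06). The log2 change under shRING1B was 0.17 (95% interval -0.14 to 0.48) in A673 and -0.08 (95% interval -0.39 to 0.23) in SK-ES1.

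JUP (plakoglobin) serves both desmosomes and adherens junctions. In A673 its log2 level was 8.08 and 8.15 with shGFP and 7.93 and 7.83 with shRING1B. These groups did not overlap, but the change of -0.24 (95% interval -0.55 to 0.08, limma adjusted p = 0.42) did not pass. In SK-ES1 the control arrays read 7.68 and 7.46 and the shRING1B arrays 7.74 and 7.39, which overlapped. Under shGFP JUP was lower in SK-ES1 by 0.54 on the log2 scale (standard error 0.143, limma adjusted p = 0.0154). That call was lost without A673 shGFP replicate 1 (adjusted p = 0.0552), A673 shGFP replicate 2 (0.0869) or SK-ES1 shGFP replicate 2 (0.11).

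DSP (desmoplakin) lay close to the median of all probe sets. In A673 its log2 level was 3.995 and 3.68 with shGFP and 3.83 and 3.46 with shRING1B. In SK-ES1 the control arrays read 4.87 and 4.60 and the shRING1B arrays 4.39 and 4.43. The SK-ES1 arrays all lay above those of A673, and under shGFP the difference was 0.90 (standard error 0.163, limma adjusted p = 0.00196). The log2 change under shRING1B was -0.19 (95% interval -0.55 to 0.17) in A673 and -0.33 (95% interval -0.69 to 0.03) in SK-ES1, and neither passed.

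**Figure D3:**
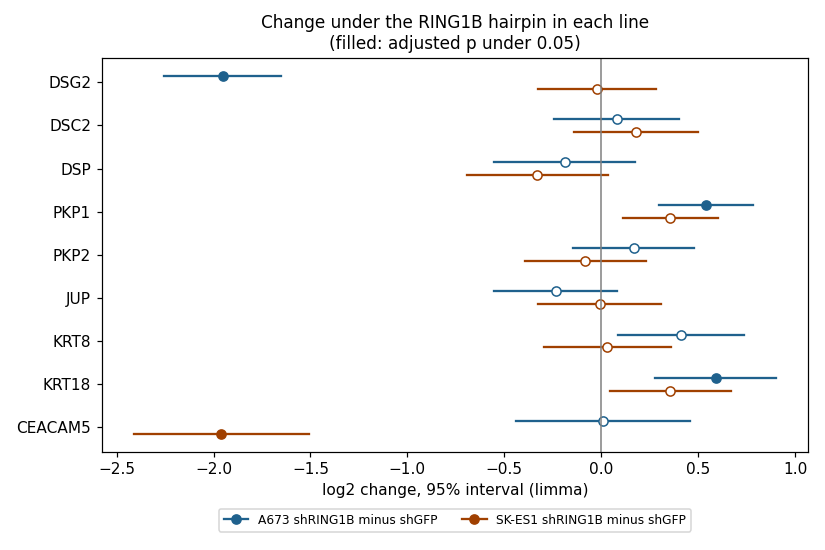
Log2 change under the RING1B hairpin with its 95% interval from limma for each measured member, in A673 (blue) and SK-ES1 (brown); filled points have an adjusted p under 0.05. DSG2 at -1.95 in A673 and CEACAM5 at -1.96 in SK-ES1 stand far from 0 in 1 line each, and PKP1 and KRT18 lie above 0 in both lines.

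KRT8 and KRT18 pair to form the filaments of simple epithelia, and their genes are neighbours on chromosome 12. KRT18 rose in A673 from 8.95 and 8.64 under shGFP to 9.36 and 9.42 under shRING1B, a log2 change of 0.59 (standard error 0.14, limma adjusted p = 0.0487). In SK-ES1 the control arrays read 6.30 and 6.54 and the shRING1B arrays 6.72 and 6.83, a change of 0.36 (95% interval 0.05 to 0.67, limma adjusted p = 0.633). The hairpin groups overlapped in neither line. The difference between the lines in this change was -0.23 (95% interval -0.67 to 0.21, adjusted p = 0.661). Under shGFP KRT18 was 2.38 lower in SK-ES1, or 5.20-fold (standard error 0.14, limma adjusted p = 8.24e-07).

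The A673 call of KRT18 held in 6 of 17 alternative settings. It was lost without any 1 of the 8 arrays, with an adjusted p between 0.0525, without A673 shGFP replicate 1, and 0.345, without A673 shGFP replicate 2. For the other arrays it was 0.123 without A673 shRING1B replicate 1, 0.15 without A673 shRING1B replicate 2, 0.0573 without either SK-ES1 shGFP array and 0.0763 without either SK-ES1 shRING1B array. It was also lost with all probe sets tested (0.107) and when A673 was fitted alone (0.0998).

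The identity of the KRT18 signal is uncertain. The array has 2 probe sets named KRT18, and RefSeq lists 68 KRT18 pseudogenes, which share sequence with KRT18. The number of the brighter probe set, the one used, falls between those of CMTM8 and CMTM7, genes of chromosome 3, and within CMTM8 RefSeq lists the pseudogene KRT18P15. The number of the other falls between those of KRT7 and EIF4B, genes of chromosome 12 like KRT18 itself. That second probe set read 6.47 and 6.19 in A673 shGFP and 6.78 and 6.95 in A673 shRING1B. In SK-ES1 it read 4.17 and 3.95 under shGFP and 4.42 and 4.53 under shRING1B. The groups stood in the same order on both probe sets. In place of the brighter one, a choice made after seeing the data, it gave a log2 change of 0.54 in A673, which was not called (limma adjusted p = 0.0661). Which of these loci each probe set reports was not tested.

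**Figure D4:**
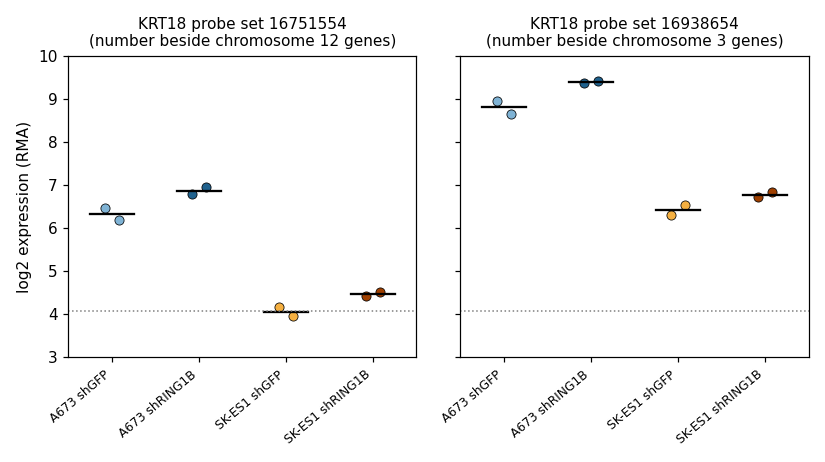
Log2 level of the 2 probe sets named KRT18 on each of the 8 arrays, with points for arrays, bars for group means and a dotted line at the median of all probe sets (4.07). Both place A673 above SK-ES1 and, within each line, shRING1B above shGFP, at A673 shGFP means of 6.33 (left) and 8.80 (right).

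KRT8 lay at 4.98 and 5.18 in A673 shGFP and at 5.50 and 5.48 in A673 shRING1B. In SK-ES1 it lay at 5.31 and 4.91 under shGFP and at 5.12 and 5.16 under shRING1B. The A673 groups did not overlap, but the log2 change of 0.41 (95% interval 0.09 to 0.74) did not pass (limma adjusted p = 0.164). In SK-ES1 the change was 0.03 (95% interval -0.29 to 0.36). Under shGFP the lines differed by 0.03 (95% interval -0.29 to 0.36), unlike the KRT18 probe sets. The annotation gives the KRT8 probe set a non-coding RefSeq record, and which KRT8 transcripts it reports was not tested.

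CEACAM5, the carcinoembryonic antigen, is a cell-surface adhesion molecule of the gut epithelium and of many carcinomas, and no part of the desmosome. In SK-ES1 its log2 level was 7.07 and 6.49 with shGFP and 4.97 and 4.67 with shRING1B. The groups lay far apart, though the control arrays differed by more than the knockdown arrays. The log2 change was -1.96 (standard error 0.202, 95% interval -2.41 to -1.51, limma adjusted p = 0.0078), a 3.89-fold lower level. The A673 arrays read 4.63 and 4.45 with the control hairpin and 4.75 and 4.36 with shRING1B, which overlapped, and the change was 0.0096 (95% interval -0.44 to 0.46, adjusted p = 0.988). Under shGFP CEACAM5 was 2.23 higher in SK-ES1, or a measured 4.70-fold (standard error 0.202, limma adjusted p = 1.87e-05). Whether its lower levels, in A673 and in SK-ES1 shRING1B, stood above background was not measured, so both folds may be affected. Under shRING1B, SK-ES1 stood at 4.82 ± 0.209, and its arrays overlapped those of A673 shRING1B at 4.55 ± 0.274 (SD, n = 2), so SK-ES1 shGFP stood alone above the other groups.

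The CEACAM5 change differed between the lines by -1.97 (standard error 0.286, limma adjusted p = 0.0183). In SK-ES1 the change was no longer called when 1 of 3 arrays was left out: shGFP replicate 1 (adjusted p = 0.0503), shRING1B replicate 1 (0.0933) or shRING1B replicate 2 (0.133). The difference between the lines lost its call without these arrays too (0.0632, 0.0835 and 0.0961) and without A673 shGFP replicate 2 (0.11). The change itself stayed between -2.25 and -1.67 in SK-ES1.

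CEACAM6, the neighbour of CEACAM5 on chromosome 19 and a close relative in sequence, showed a like set of values. It read 5.88 and 5.28 in SK-ES1 shGFP and 4.36 and 4.12 in SK-ES1 shRING1B, a log2 change of -1.34 (standard error 0.197) that narrowly missed the threshold (limma adjusted p = 0.0525). It was called in only 5 of 17 alternative settings, among them median centring (limma adjusted p = 0.0276), and not in the others. Over the 17 settings its change in SK-ES1 lay between -1.64 and -1.04. In A673 it read 4.43 and 4.21 under shGFP and 4.08 and 4.37 under shRING1B. How far the probes of these relatives share signal was not tested. The other 5 measured neighbours of CEACAM5 (CEACAM21, CEACAM4, CEACAM7, CEACAM3 and LYPD4) were not called under the hairpin in either line. Of 10 measured further CEACAM genes limma called none either, where 3.74% of all genes were called in A673 and 0.0672% in SK-ES1. In each line 2 of the 10 had an unadjusted p under 0.05 (18.9% of all genes in A673 and 7.36% in SK-ES1). The median log2 change of the 10 was 0.02 in A673 and -0.04 in SK-ES1.

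Other genes of junctions and epithelia were counted in the same fit. Under the RING1B hairpin limma called none of 9 other desmosomal genes, 10 other keratins, 16 tight junction and polarity genes, 5 other adherens and epithelial adhesion genes or 10 epithelial transcription and splicing factors, in either line, where 3.74% of all genes were called in A673 and 0.0672% in SK-ES1. In A673 shGFP 4, 2, 12, 5 and 5 of these genes, in that order, lay above the median of all probe sets, and in SK-ES1 shGFP 4, 2, 12, 5 and 6. Signal over background was not measured, so a fall in genes near background might not have shown. At an unadjusted p under 0.05 there were 0, 1, 2, 1 and 0 genes in A673, in that order, and 0, 2, 2, 1 and 0 in SK-ES1, against 18.9% and 7.36% of all genes. Their median log2 changes in A673 were 0.0006, -0.12, 0.12, 0.08 and -0.0062, and in SK-ES1 0.20, -0.0008, 0.03, 0.19 and 0.05. The smallest adjusted p among them in A673 was 0.0519, for OCLN (occludin, a tight junction membrane protein), with a log2 change of 0.59. In SK-ES1 it was 0.0941, for TJP1 (ZO-1, a tight junction scaffold), which read 6.92 and 6.92 under shGFP and 6.30 and 5.94 under shRING1B, a change of -0.80. That of TJP1 passed in only 2 of 17 alternative settings, a filter on low values (limma adjusted p = 0.0414) and a trended, robust variance model (0.0041). Over the 17 settings its change lay between -0.98 and -0.62.

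Between the lines under shGFP, 7 of the 16 tight junction genes were called, 4 higher and 3 lower in SK-ES1, where 30.7% of all genes were called, 13.7% higher and 17% lower. OCLN (0.92), PARD6B (0.80), LSR (0.68) and TJP3 (0.46) were higher, and CLDN1 (-1.27), TJP1 (-1.06) and MARVELD3 (-0.58) were lower. TJP3 lost its call without any 1 of the 4 shGFP arrays, with an adjusted p between 0.0808, without SK-ES1 shGFP replicate 1, and 0.192, without SK-ES1 shGFP replicate 2. MARVELD3 lost it without A673 shGFP replicate 2 (0.0689) or SK-ES1 shGFP replicate 2 (0.0525). The nectins NECTIN2 (-1.11) and NECTIN3 (-0.88), adherens junction proteins, were lower in SK-ES1. Among the CEACAM genes CEACAM6 (1.26) was higher, and CEACAM1 (-1.29) and CEACAM21 (-0.55) were lower. CEACAM21 lost its call without A673 shGFP replicate 2 (0.0578) or SK-ES1 shGFP replicate 1 (0.0672). None of the 9 other desmosomal genes or 10 other keratins was called between the lines (smallest limma adjusted p = 0.226 and 0.12, with 0 and 1 at an unadjusted p under 0.05, as were 39.7% of all genes). Under shGFP 4 of these desmosomal genes and 2 of these keratins lay above the median of all probe sets in each line. GRHL3, an epithelial transcription factor, was called at 0.57 (limma adjusted p = 0.0487) and lost the call without A673 shGFP replicate 2 (0.293), SK-ES1 shGFP replicate 1 (0.104) or SK-ES1 shGFP replicate 2 (0.187), with all probe sets tested (0.0961), and on renormalizing by quantiles (0.0518) or cyclic loess (0.0595).

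Genes whose 8 array values ran most like those of DSG2, CEACAM5 and KRT18 were sought among 1713 genes whose group means spanned at least 1 on the log2 scale. The 8 values share lines and hairpins, so a high correlation mostly reflects the differences between the 4 groups. For DSG2 the 5 highest Pearson correlations were those of ZNF667-AS1 (0.996), MECOM (0.995), CRABP2 (0.994), ZNF138 (0.994) and ADD2 (0.994). ZNF138, for example, stood at means of 8.98 and 7.56 in A673 shGFP and shRING1B and at 6.07 and 5.76 in SK-ES1. For CEACAM5 they were SP100 (0.963), CEACAM6 (0.957), GRPR (0.954), MAP7 (0.95) and RIGI (0.919), each higher in SK-ES1 shGFP than in the other 3 groups. SP100 is a nuclear body protein and RIGI a sensor of viral RNA, both interferon-induced, GRPR is a peptide receptor, and MAP7 binds microtubules. For KRT18 they were GALNT7 (0.997), LOC100129034 (0.996), FAT1 (0.996), PDGFRL (0.995) and WWC2 (0.994). With 8 arrays many genes tie in Spearman correlation: 9 genes stood at 1 for DSG2, 9 at 1 for KRT18, and 8 at 0.929 or above for CEACAM5. Of the 5 genes by Pearson correlation, these tied sets held 0 for DSG2, 0 for CEACAM5 and 1 (GALNT7) for KRT18.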

How the data were processed

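Total RNA of 8 samples was measured on Affymetrix arrays after labelling with a whole-transcript kit, per the labels' protocols. The authors deposited log2 expression, 1 value per probe set and array, made with RMA, which corrects background, normalizes arrays by quantiles and summarises probes; RMA and limma are named in the submitters' processing notes, with no version. Quantile normalization hides changes shared by most genes. Array version and genome build are not given in the sources used here, and signal over background was not measured, so the number of arrays limits the precision.

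Of 48144 probe sets 16098 had 1 gene symbol in the platform's annotation and 32046 were unnamed here. A linear model of 4 group means over all 8 arrays was fitted with limma 3.58.1 in R 4.3.3 (statmod 1.5.0 for the robust alternative), with 4 residual degrees of freedom. P-values are two-sided and adjusted over 14884 genes; intervals are 95% and unadjusted. The script was tested on simulated data. Groups came from the descriptions in the labels, and replicate numbers in accession order only name arrays. The members and lists were chosen with earlier results of these data known. Named beside the members are list genes called in a comparison (where none was, those with the smallest p), cluster neighbours and the 5 genes most alike; CEACAM6 and TJP1 were also followed for their values. Alternatives were other normalizations and variance models, a filter on low values, all probe sets, the mean of a gene's probe sets, each line alone and each array left out.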

Additional observations from a re-analysis of the deposited data

Results flagged for a closer look

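The response to the RING1B hairpin differed between the lines, by the test of the difference itself, in 2 of the 9 measured members. For DSG2 the log2 change in SK-ES1 minus that in A673 was 1.93 (limma adjusted p = 0.00562), from -1.95 in A673 and -0.0219 in SK-ES1. For CEACAM5 it was -1.97 (limma adjusted p = 0.0183), from 0.0096 in A673 and -1.96 in SK-ES1. Over all genes 0.786% were called for this difference. Both genes were listed with their changes known, so these values and the control levels that follow are a description and support nothing further. Each gene changed in the line where its control level was the higher: DSG2 stood at 6.90 ± 0.24 in A673 shGFP and 3.15 ± 0.0996 (SD, n = 2) in SK-ES1 shGFP, and CEACAM5 at 4.54 ± 0.126 and 6.78 ± 0.406. DSG2 lay under the median of all probe sets on the 4 SK-ES1 arrays, and whether it stood above background there was not measured, so a smaller response cannot be told apart from a level too low to show a fall. The part of the control level in the CEACAM5 difference was not tested. Groups of 2 arrays are too small to look for single arrays that stand apart.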

How the results depend on the processing

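No paired analysis was possible because the labels carry no replicate numbers. The count of members called in A673 was 3, and it was 1 (DSG2) with all probe sets tested, 1 when A673 was fitted alone, and 1 to 2 with an array left out, the 1 (DSG2) without any 1 of the 4 A673 arrays. In SK-ES1 the count of 1 was 0 to 1 with an array left out, the 0 without shGFP replicate 1 or either shRING1B array of that line. The count of 2 for the difference between lines was 0 to 2, with 0 without either SK-ES1 shRING1B array and 1 without A673 shGFP replicate 2 or SK-ES1 shGFP replicate 1, and that of 6 between the lines under shGFP 5 to 6, with an array left out. Under the settings not named here these counts stayed within 1.5 times. Among changes that were never called, JUP in SK-ES1 (-0.0085) was 0.00907 with quantile normalization repeated and 0.00554 with cyclic loess, and KRT8 in SK-ES1 (0.03) was -0.00551 with median centring. With an array left out, signs also turned within these ranges: JUP in SK-ES1 -0.19 to 0.17, KRT8 in SK-ES1 -0.17 to 0.23, PKP2 in SK-ES1 -0.20 to 0.0379, DSG2 in SK-ES1 -0.0923 to 0.0485, CEACAM5 in A673 -0.18 to 0.20, DSC2 in A673 -0.0817 to 0.24, CEACAM6 in A673 -0.24 to 0.0565, KRT8 between the lines -0.17 to 0.23, and for the difference in response DSC2 -0.0625 to 0.26 and DSP -0.33 to 0.0454. The cause was not tested. No scaling moved the median change of all genes by 0.1 or more. DSC2 has no value with the filter on low values, which removed it.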

Other observations

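Repressors of the epithelial state, transcription factors known to silence cadherins and keratins, were measured in full (6 of 6), and limma called none under the RING1B hairpin in either line. At an unadjusted p under 0.05 there were 3 in A673 and 1 in SK-ES1, against 18.9% and 7.36% of all genes. The median log2 change was -0.37 in A673 and -0.11 in SK-ES1, against 0.01 and -0.0039 over all genes. In A673 4 of the 6 changes lay below 0 and 2, that of TWIST1 among them, above 0. In SK-ES1 all 6 lay below 0. TWIST1, a factor of mesenchymal development, read 5.40 and 5.31 in A673 shGFP and 5.84 and 5.65 in A673 shRING1B. In SK-ES1 it read 5.06 and 5.15 under shGFP and 4.53 and 4.35 under shRING1B. The groups overlapped in neither line, and the changes of 0.39 (limma adjusted p = 0.121) and -0.67 (0.152) did not pass, while the difference between the lines of -1.05 did (limma adjusted p = 0.0341). That call was lost without any 1 of 7 arrays, all but A673 shRING1B replicate 2 (adjusted p = 0.0667 without A673 shGFP replicate 1, to 0.152 without A673 shGFP replicate 2) and with all probe sets tested (0.0843). Under shGFP limma called 3 of the 6 between the lines, where 30.7% of all genes were called, 13.7% higher and 17% lower. ZEB1 was higher in SK-ES1 by 1.07, and SNAI1 (-1.01) and TWIST2 (-0.59) were lower. In A673 shGFP ZEB1 stood at 4.37 and TWIST2 at 4.11, and TWIST2 stood at 3.52 in SK-ES1 shGFP. These levels lay near or under the median of all probe sets (4.07), and signal over background was not measured. TWIST2 lost its call without A673 shGFP replicate 2 (0.0628) or SK-ES1 shGFP replicate 1 (0.0592).

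Of 8 listed mesenchymal cadherin, filament and matrix genes 4 were measured, all of them filament or matrix genes. Under the RING1B hairpin limma called 1 of the 4 in A673, where 3.74% of all genes were called, and 0 in SK-ES1, where 0.0672% were. In A673 NES (nestin, an intermediate filament of progenitor cells) rose from 6.61 and 6.40 to 7.01 and 7.16, a log2 change of 0.58 (limma adjusted p = 0.0383). It lost its call without any 1 of the 8 arrays, with an adjusted p between 0.0527 without either SK-ES1 shGFP array and 0.289 without A673 shGFP replicate 2, with all probe sets tested (0.0888) and when A673 was fitted alone (0.0915). Between the lines under shGFP 2 of the 4 were called, both lower in SK-ES1, where 30.7% of all genes were called and 17% were lower. NES was one, at -1.73 on the log2 scale in SK-ES1 against A673 (limma adjusted p = 4.2e-06). FN1 (fibronectin), at 11.55 ± 0.0108 in A673 shGFP and 5.14 ± 0.226 (SD, n = 2) in SK-ES1 shGFP, was lower in SK-ES1 by 6.41 on the log2 scale (limma adjusted p = 4.41e-09). DES (desmin) and VIM (vimentin) were called in none of the comparisons. The DES change in A673 was larger than that of NES, at 0.80 (limma adjusted p = 0.0712).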
